A study of Homo sapiens with 16 samples.

Results

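The 82 genes described here encode nuclear-encoded subunits of the mitochondrial respiratory chain and ATP synthase. They were chosen by symbol, with earlier results of these data known. Names that begin with NDUFA, NDUFB, NDUFC, NDUFS or NDUFV and a digit (or AB1) were taken. So were names that begin with UQCR, COX4I, COX5, COX6, COX7, COX8 or ATP5, together with CYC1 and SDHA to SDHD. Of 95 symbols in the deposited table that match, 5 carry a hyphen, 1 is a pseudogene and 7 lack a value in at least 1 culture, which leaves 82 of the 15864 genes measured in all 8 cultures. Complex I, the NADH dehydrogenase, has 37 of them, complex II, the succinate dehydrogenase, 4, complex III, the cytochrome bc1 complex, 10, complex IV, the cytochrome c oxidase, 13, and complex V, the ATP synthase, 18. NDUFA4 was counted with complex IV, where the protein is now placed. The symbol rule also took in ATP5IF1, which is an inhibitor of the ATP synthase and not a subunit, and UQCRHL, a near copy of UQCRH whose reads cannot be told apart with certainty.

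The measurements come from H9, an established human embryonic stem cell line grown without feeder cells. The cells received a negative control siRNA (NC) or an siRNA (a short RNA that lowers its target mRNA) against OCT4, the pluripotency factor encoded by POU5F1 (siOCT4), at 20% oxygen or in hypoxia at 1% oxygen. Each of the 4 groups has 2 cultures: control siRNA at 20% oxygen, siOCT4 at 20% oxygen, control siRNA at 1% oxygen and siOCT4 at 1% oxygen. From each culture 2 libraries were sequenced, one of total RNA and one of RNA recovered with ribosomes that carry a growing peptide (ribosome-nascent chain complexes, RNC). The translation ratio of a gene is its RNC value over its RNA value. Nothing in the labels tells if the paired cultures came from separate dishes, so p-values measure only the spread between these samples, and the results stand for 1 cell line. The table holds ratios only: the depth of the libraries is not given, a shift may lie on the RNC or on the RNA side, and the ratio of POU5F1 is no check of its knockdown. In bulk libraries such as these, fewer cells of a type and less RNA per cell cannot be told apart. All 7 pluripotency markers checked had a ratio in all 8 cultures, as did 10 of 15 markers of other cell types, which shows that they were detected but not at which level.

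The respiratory chain passes electrons from NADH (complex I) and succinate (complex II) through complex III and cytochrome c to oxygen at complex IV, and complex V uses the resulting proton gradient to make ATP. The chain is built from parts of both genomes: the most hydrophobic subunits are encoded in mitochondrial DNA, while the genes described here are translated on cytosolic ribosomes and imported, with complex II made of nuclear-encoded subunits alone. Oxygen is the substrate of complex IV, and cells in hypoxia are known to exchange some subunit isoforms, such as COX4I1 for COX4I2 and NDUFA4 for NDUFA4L2. The 13 mitochondrially encoded mRNAs were not analysed here.

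Coding sequence is shown first for the c subunit of ATP synthase, because ATP5MC1, ATP5MC2 and ATP5MC3 encode the same mature protein, a membrane protein of the rotating ring, and yet differed in ratio. The 231 bases below (77 codons, 5′ to 3′, from GENCODE release 29 on GRCh38) give the same amino acids in all 3 genes. Capitals mark the 57 positions where the 3 sequences differ, of which 49 are the last base of a codon. ATP5MC1 lies on chromosome 17, ATP5MC2 on chromosome 12 and ATP5MC3 on chromosome 2.
ATP5MC1: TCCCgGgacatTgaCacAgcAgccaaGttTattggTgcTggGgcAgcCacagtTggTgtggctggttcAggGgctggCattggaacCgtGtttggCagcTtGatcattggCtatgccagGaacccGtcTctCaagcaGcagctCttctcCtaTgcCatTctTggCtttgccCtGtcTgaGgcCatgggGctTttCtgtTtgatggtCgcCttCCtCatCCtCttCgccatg
ATP5MC2: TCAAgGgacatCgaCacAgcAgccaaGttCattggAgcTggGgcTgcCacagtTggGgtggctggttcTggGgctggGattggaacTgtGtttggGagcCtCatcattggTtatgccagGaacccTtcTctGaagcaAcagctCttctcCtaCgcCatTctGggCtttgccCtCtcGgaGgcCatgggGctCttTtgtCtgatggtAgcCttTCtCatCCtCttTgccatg
ATP5MC3: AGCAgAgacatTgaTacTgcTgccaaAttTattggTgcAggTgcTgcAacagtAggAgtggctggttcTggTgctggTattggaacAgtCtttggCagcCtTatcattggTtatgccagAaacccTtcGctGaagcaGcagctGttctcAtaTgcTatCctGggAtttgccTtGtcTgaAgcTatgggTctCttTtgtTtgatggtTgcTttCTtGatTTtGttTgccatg
ATP5MC1 and ATP5MC2 share 88.3% of these bases, and ATP5MC3 shares 80.1% with either. The GC content of the stretch is 55.4% in ATP5MC1, 54.98% in ATP5MC2 and 45.9% in ATP5MC3, and at the last base of each codon it is 63.6%, 61.0% and 39.0%.

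The first 120 coding bases of NDUFA5, on chromosome 7, and of NDUFS7, on chromosome 19, are shown because these complex I genes had the highest and the lowest mean ratio of all 82 in control cells at 20% oxygen. Capitals mark G and C, which make up 45.8% of the NDUFA5 stretch and 69.2% of the NDUFS7 stretch.
NDUFA5: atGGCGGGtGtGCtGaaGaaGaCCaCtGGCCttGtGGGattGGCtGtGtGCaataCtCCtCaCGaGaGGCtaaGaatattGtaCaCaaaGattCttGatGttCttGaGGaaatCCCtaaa
NDUFS7: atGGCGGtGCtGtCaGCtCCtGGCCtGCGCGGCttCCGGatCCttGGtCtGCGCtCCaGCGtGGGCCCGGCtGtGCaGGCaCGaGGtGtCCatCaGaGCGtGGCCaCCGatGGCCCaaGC
Over the whole transcript the GC content is 34.4% for NDUFA5 and 66.8% for NDUFS7 (medians over the annotated coding transcripts).

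Ratios of the respiratory chain genes were lowest in siOCT4 cells at 1% oxygen. The median ratio of the 82 genes was 1.20 and 1.40 in the 2 control cultures at 20% oxygen, 1.27 and 1.34 in siOCT4 cells at 20% oxygen, 1.11 and 0.964 in control cells at 1% oxygen, and 0.604 and 0.608 in siOCT4 cells at 1% oxygen. The median of all 15864 genes ran the other way in that last group, at 1.35 and 1.31, after 1.02 and 1.02 in control cells at 1% oxygen. The 2 cultures in which both treatments were combined thus lie below the other 6 for the respiratory chain, without overlap of the medians. In those 2 cultures 11 and 15 of the 82 genes had a ratio above 1, compared with 37 to 75 in the other 6.

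**Figure D1:**
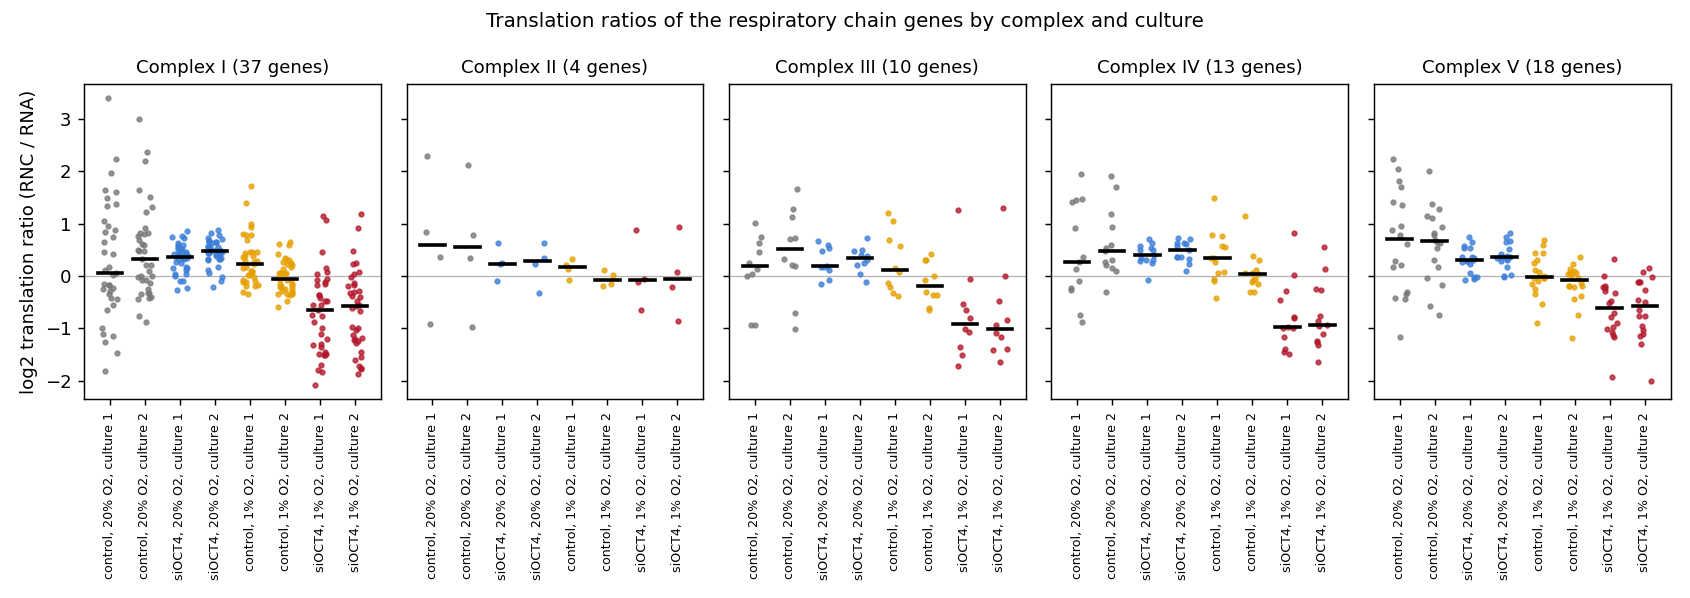
Log2 translation ratio (vertical axis) of each gene in each of the 8 cultures (horizontal axis), 1 panel per complex; points are genes and black bars are medians. In the 2 siOCT4 cultures at 1% oxygen the medians of complexes I, III, IV and V lie below those of the other 6 cultures.

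For 64 of the 82 genes (78.0%) both siOCT4 cultures at 1% oxygen had a lower ratio than all 6 other cultures, compared with 12.2% of all genes. This held for 29 of 37 genes of complex I, 9 of 10 of complex III, 11 of 13 of complex IV and 14 of 18 of complex V, but for 1 of 4 genes of complex II (SDHC). Only NDUFS1, the largest subunit of the complex I electron input arm, and UQCRC2, a core protein of complex III, were above all 6 others in both cultures, which 19.2% of all genes were. The median ratios in the 2 siOCT4 cultures at 1% oxygen were 0.638 and 0.672 for complex I, 0.947 and 0.956 for complex II, 0.532 and 0.497 for complex III, 0.506 and 0.522 for complex IV, and 0.653 and 0.673 for complex V. Among the 5 complexes, complex II therefore stood closest to 1, and complexes III and IV lay lowest. The 4 genes of complex II were spread from 0.639 to 1.83 and from 0.549 to 1.91 in these cultures.

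Ratios were tied to transcript GC content in 2 of the 4 groups, and the 82 genes shared this dependence with the rest of the table. Over the 82 genes the Pearson correlation of log2 ratio with transcript GC content was -0.80 and -0.73 in control cells at 20% oxygen, -0.65 and -0.65 in siOCT4 cells at 1% oxygen, and between -0.32 and 0.13 in the other 4 cultures. These are descriptions across genes of 1 library pair each, and genes are not independent replicates. In control cells at 20% oxygen the 20 genes under 45% GC had median ratios of 2.75 and 2.38, and the 20 genes over 55% GC had 0.569 and 0.893. In siOCT4 cells at 1% oxygen the same classes had 0.900 and 0.955 against 0.388 and 0.415, so that both classes were below 1 there. Each comparison is therefore given also with a GC correction, in which the log2 ratio is replaced by its distance from the trend of all genes on GC content in that culture.

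**Figure D2:**
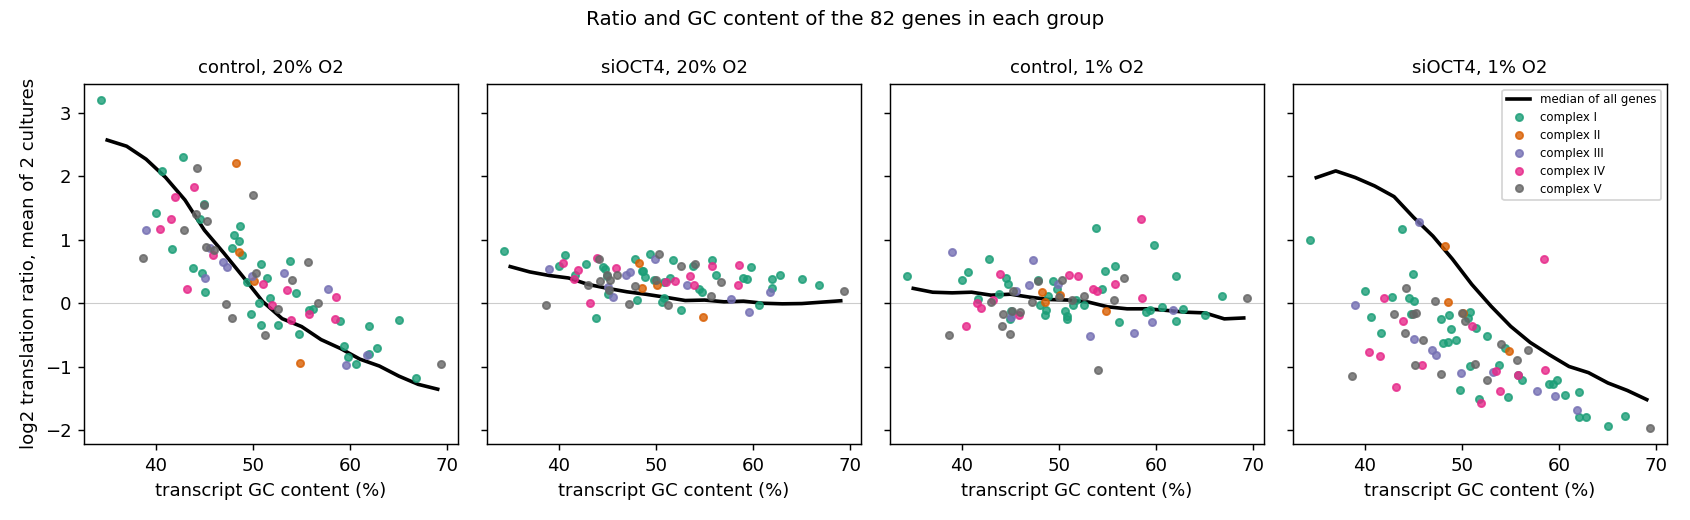
Mean log2 translation ratio of the 2 cultures of a group (vertical axis) against transcript GC content in percent (horizontal axis), 1 panel per group; points are the 82 genes, coloured by complex, and the black line is the median of all genes with that GC content. In siOCT4 cells at 1% oxygen nearly all points lie below the line.

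In siOCT4 cells at 1% oxygen 79 of the 82 genes (96.3%) were below that trend in both cultures, compared with 40.9% of all genes with a known GC content. The share was 31.7% of the 82 genes in control cells at 20% oxygen (38.1% of all genes), 13.4% in siOCT4 cells at 20% oxygen (36.4%) and 28.0% in control cells at 1% oxygen (37.5%). In siOCT4 cells at 20% oxygen most of the 82 genes lay on the other side, with 75.6% above the trend in both cultures, compared with 39.2% of all genes. The 3 genes above the trend in both siOCT4 cultures at 1% oxygen were COX6B2, a testis-type isoform of a complex IV subunit, SDHD, a membrane anchor of complex II, and UQCRC2. After the correction 73 of 82 genes had both siOCT4 cultures at 1% oxygen below all 6 others, compared with 18.6% of all genes. For 0 genes both were above, compared with 16.7%. The median distance from the trend in these 2 cultures was -0.48 and -0.61 for complex II. It was -0.55 and -0.46 for the 7 nuclear-encoded core subunits of complex I, and -1.11 and -1.03 for its 30 accessory subunits.

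Length was also related to the ratios. The 82 transcripts are short, with a median of 752 nucleotides against 2601 for the coding genes tested, and over all genes the ratio in siOCT4 cells at 1% oxygen was higher for longer transcripts (Spearman's rho across genes 0.31 and 0.31). Within the 82 genes, the 35 with a coding sequence under 350 nucleotides had medians of -1.53 and -1.35 log2 units from the GC trend in the 2 cultures, the 27 from 350 to under 600 nucleotides had -1.07 and -0.86, and the 20 of 600 or more had -0.71 and -0.65. Spearman's rho of the GC-corrected ratio across the 82 genes was 0.38 and 0.38 with coding length, but 0.13 and 0.05 with transcript length. In siOCT4 cells at 20% oxygen the relation had the opposite sign, at -0.46 and -0.40 with coding length and -0.41 and -0.51 with transcript length. Over all genes, without GC correction, rho with transcript length was -0.18 and -0.26 there. The comparison of oxygen levels in siOCT4 cells thus sets opposite length trends against each other. What part length has in the lower ratios was not tested beyond this. With the trend on both GC content and length taken out, the median of the 82 genes was still at -0.66 and -0.69 in the siOCT4 cultures at 1% oxygen. It was between -0.08 and 0.14 in the other 6.

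The comparison of siOCT4 with control siRNA at 1% oxygen asks what the OCT4 siRNA did to these mRNAs in hypoxia. Of the 82 genes, 50 fell (19.9% of all genes tested did) and 5 rose (41.1% of all genes), with a median log2 change of -0.75 beside 0.42 over all genes. After the GC correction 66 fell (23.0% of all genes) and 1 rose (22.1%), with a median of -1.14 beside -0.02, and after correction for GC content and length 48 fell (22.2%) and 2 rose (19.1%), with a median of -0.64 beside -0.04. As deposited, 26 of 37 genes of complex I fell and 2 rose, and 1 of 4 of complex II fell and 1 rose. In complex III 5 of 10 fell and 1 rose. In the last complexes 9 of 13 of complex IV fell and 0 rose, and 9 of 18 of complex V fell and 1 rose. Without siOCT4 culture 1 or 2 or control culture 1 at 1% oxygen fewer of the 82 genes passed as lower, and so did fewer of all genes. The median log2 change was -0.75 and -0.75 without siOCT4 culture 1 and 2, beside 0.42 and 0.44 over all genes. Without control culture 1 it was -0.58 beside 0.43.

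In complex IV all but 1 of the 13 changes were negative. COX5B, a nuclear-encoded subunit on the matrix side, had ratios of 1.72 and 1.05 in control cells at 1% oxygen and 0.356 and 0.319 after siOCT4. At 20% oxygen it had 0.831 and 1.15 in control and 1.24 and 1.29 in siOCT4 cells. The siOCT4 cultures at 1% oxygen lay below all others, and the gene fell 3.98-fold (log2 change -1.99 ± 0.28 SE, adjusted p = 0.0017; 4.46-fold GC corrected). COX4I1, the regulatory subunit that binds ATP, had 1.26 and 1.04 in control and 0.367 and 0.402 in siOCT4 cells, and fell 2.98-fold (log2 change -1.57 ± 0.16 SE, adjusted p = 0.000552; 2.80-fold GC corrected). COX7A2L, which takes part in joining complexes III and IV into supercomplexes, had 1.04 and 1.02 against 0.380 and 0.423 and fell 2.57-fold (log2 change -1.36 ± 0.16 SE, adjusted p = 0.000933), and 6.96-fold after the GC correction, with a transcript GC content of 43.2%. These 3 genes passed in all 8 fits that left out 1 culture, with and without the GC correction. COX6B2 did not pass, with 2.83 and 2.21 in control and 1.77 and 1.48 in siOCT4 cells (log2 change -0.63 ± 0.35 SE, adjusted p = 0.165).

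In complex III the electron-carrying subunit cytochrome c1, encoded by CYC1, had ratios of 1.11 and 0.777 in control cells at 1% oxygen against 0.304 and 0.318 with siOCT4, and fell 2.98-fold (log2 change -1.58 ± 0.22 SE, adjusted p = 0.00173; 1.73-fold GC corrected). UQCR10, a small accessory subunit, had 1.60 and 0.952 against 0.494 and 0.443 and fell 2.64-fold (log2 change -1.40 ± 0.30 SE, adjusted p = 0.00852; 3.66-fold GC corrected). UQCRC2 moved the other way, from 1.05 and 1.24 to 2.40 and 2.47, and rose 2.13-fold (log2 change 1.09 ± 0.16 SE, adjusted p = 0.00208). Its transcript GC content is 45.5%, and its GC-corrected log2 change was -0.04 ± 0.10 SE, adjusted p = 0.808, which does not pass.

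In complex I NDUFA13, an accessory subunit also known as GRIM-19, had 2.00 and 0.898 in control and 0.308 and 0.274 in siOCT4 cells at 1% oxygen. Its 2 control cultures differ by more than 2-fold, yet both are above both siOCT4 cultures, and it fell 4.62-fold (log2 change -2.21 ± 0.46 SE, adjusted p = 0.00804; 2.66-fold GC corrected). The accessory subunit NDUFB8 had 1.61 and 1.25 against 0.350 and 0.367 and fell 3.97-fold (log2 change -1.99 ± 0.20 SE, adjusted p = 0.000598; 3.50-fold GC corrected). NDUFB2, another membrane arm subunit, had 1.31 and 1.04 against 0.355 and 0.420 and fell 3.02-fold (log2 change -1.59 ± 0.20 SE, adjusted p = 0.00111; 4.23-fold GC corrected). NDUFB8 and NDUFB2 were chosen after their values were seen.

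NDUFS7 of complex I, which holds the last iron-sulfur cluster before ubiquinone, had 1.37 and 0.850 in control cells at 1% oxygen against 0.280 and 0.302 with siOCT4 and fell 3.70-fold (log2 change -1.89 ± 0.32 SE, adjusted p = 0.00326; 1.73-fold GC corrected). NDUFS1 had 1.05 and 1.16 against 2.22 and 2.27 and rose 2.04-fold (log2 change 1.03 ± 0.13 SE, adjusted p = 0.00117). NDUFV2, at the NADH end, had 0.813 and 0.863 against 1.37 and 1.40 and rose 1.65-fold (log2 change 0.72 ± 0.13 SE, adjusted p = 0.00398). After the GC correction both have the opposite sign, at -0.32 ± 0.10 SE, adjusted p = 0.0394 for NDUFS1 and -0.49 ± 0.13 SE, adjusted p = 0.0268 for NDUFV2, and these corrected calls held in 2 and 4 of the 8 fits that left out 1 culture.

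**Figure D3:**
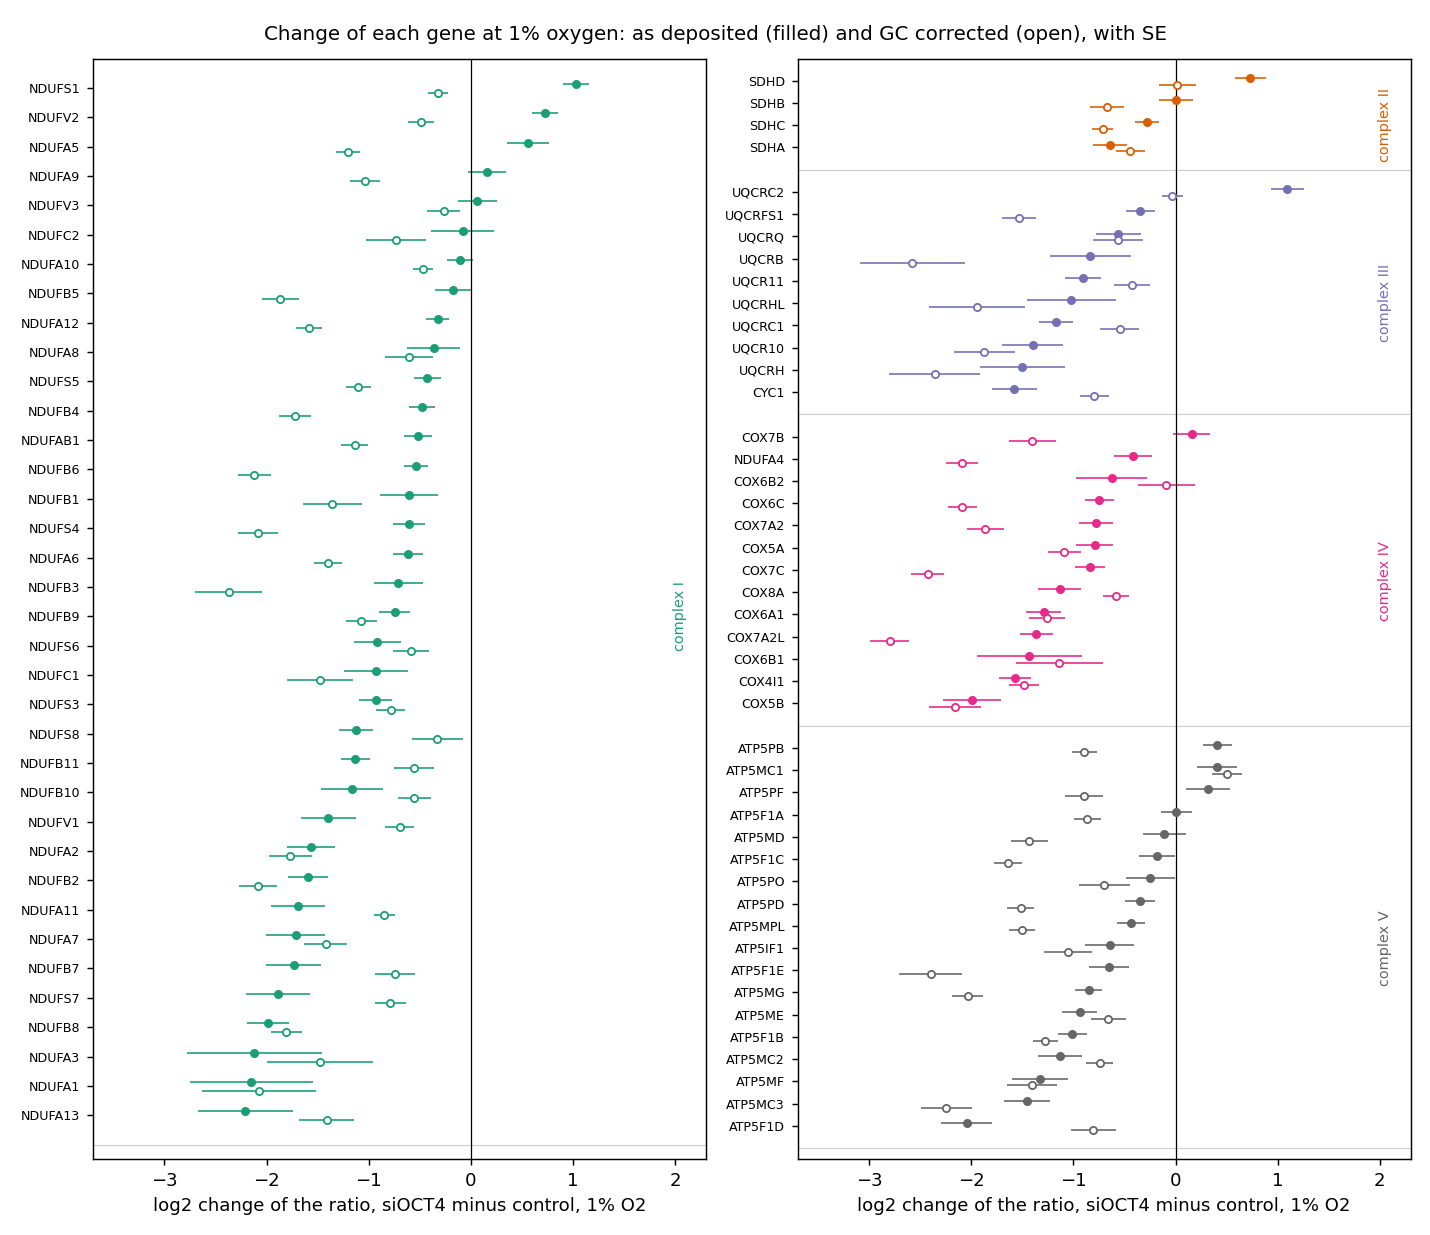
Log2 change of the ratio, siOCT4 minus control at 1% oxygen (horizontal axis), for 81 of the 82 genes (vertical axis, grouped by complex); filled points are as deposited, open points GC corrected, and bars are standard errors. Most filled points lie left of 0, and of the open points all but those of SDHD and ATP5MC1 do.

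The complex V genes that fell include subunits of the catalytic head and of the membrane part. ATP5F1D, the delta subunit of the F1 head, had 1.24 and 0.907 in control and 0.263 and 0.250 in siOCT4 cells at 1% oxygen, the lowest mean ratio of the 82 genes in that group. It fell 4.13-fold (log2 change -2.05 ± 0.25 SE, adjusted p = 0.00102). Its transcript has a GC content of 69.3%, and the GC-corrected fall was 1.75-fold and passed in 2 of 8 fits that left out 1 culture. The catalytic beta subunit ATP5F1B had 1.06 and 1.01 against 0.509 and 0.517 and fell 2.02-fold (log2 change -1.01 ± 0.14 SE, adjusted p = 0.0016; 2.42-fold GC corrected). Its partner in the head, the alpha subunit ATP5F1A, had 1.00 and 1.03 against 0.996 and 1.05 and did not pass as deposited (log2 change 0.01 ± 0.15 SE, adjusted p = 0.972), with a GC-corrected log2 change of -0.86 ± 0.13 SE, adjusted p = 0.00427. ATP5MF, the f subunit of the membrane part, had 1.36 and 0.864 against 0.456 and 0.408 and fell 2.51-fold (log2 change -1.33 ± 0.28 SE, adjusted p = 0.00772; 2.65-fold GC corrected). ATP5MF and UQCR10 were chosen after their values were seen.

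Complex II differed among its 4 subunits. SDHA, the flavoprotein that oxidizes succinate, had 0.950 and 0.896 in control cells at 1% oxygen against 0.639 and 0.549 with siOCT4 and fell 1.56-fold (log2 change -0.64 ± 0.17 SE, adjusted p = 0.0178), a call lost without control culture 1 at 1% oxygen (adjusted p = 0.0749) and without siOCT4 culture 2 at 1% oxygen (0.113). SDHD, a membrane anchor, had 1.25 and 1.02 against 1.83 and 1.91 and rose 1.66-fold (log2 change 0.73 ± 0.15 SE, adjusted p = 0.00761; GC corrected 0.02 ± 0.18 SE, adjusted p = 0.951). The iron-sulfur subunit SDHB had 1.16 and 0.879 against 0.965 and 1.06, which overlap (log2 change 0.00 ± 0.17 SE, adjusted p = 0.998). The other anchor, SDHC, had 1.09 and 1.09 against 0.929 and 0.865 (log2 change -0.28 ± 0.12 SE, adjusted p = 0.0886) and passed after the GC correction (-0.71 ± 0.10 SE, adjusted p = 0.0037), as did SDHB (-0.67 ± 0.17 SE, adjusted p = 0.0216).

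The comparison of 1% with 20% oxygen within siOCT4 cells shares the 2 low cultures with the one above. Here 59 of 82 genes fell (21.6% of all genes tested) and 2 rose (37.4%), with a median log2 change of -1.09 beside 0.27 over all genes. After the GC correction 70 fell (18.3%) and 1 rose (19.2%), with a median of -1.33 beside 0.03, and with length also corrected 48 fell (15.9%) and 2 rose (13.9%), with a median of -0.76 beside -0.0078. Without siOCT4 culture 2 at 20% oxygen fewer genes fell GC corrected, among the 82 and over all genes. The median in that fit was -1.22 beside 0.03 over all genes. The genes that fell were 26 of 37 in complex I, 2 of 4 in complex II, 7 of 10 in complex III, 11 of 13 in complex IV and 13 of 18 in complex V. The median log2 change was -1.41 in complex IV, -1.32 in complex III, -1.04 in complex V, -0.98 in complex I and -0.33 in complex II. After correction for GC content and length these medians were -0.99, -0.90, -0.98, -0.76 and -0.17.

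NDUFB7, an accessory subunit of complex I, went from 1.20 and 1.41 at 20% oxygen to 0.236 and 0.294 at 1% oxygen in siOCT4 cells and fell 4.93-fold (log2 change -2.30 ± 0.27 SE, adjusted p = 0.00113; 2.17-fold GC corrected). NDUFA11, in the same membrane arm, went from 1.27 and 1.46 to 0.287 and 0.293 and fell 4.70-fold (log2 change -2.23 ± 0.27 SE, adjusted p = 0.00123; 2.32-fold GC corrected). In both genes the groups lie far apart compared with the distance between their cultures. COX5B fell 3.76-fold (log2 change -1.91 ± 0.28 SE, adjusted p = 0.00232; 4.04-fold GC corrected). CYC1 fell 3.65-fold (log2 change -1.87 ± 0.22 SE, adjusted p = 0.00122; 1.90-fold GC corrected). UQCR10 fell 3.47-fold (log2 change -1.79 ± 0.30 SE, adjusted p = 0.00369; 4.62-fold GC corrected), and ATP5MF fell 3.49-fold (log2 change -1.80 ± 0.28 SE, adjusted p = 0.00274; 3.51-fold GC corrected). ATP5F1D went from 1.03 and 1.27 to 0.263 and 0.250 and fell 4.46-fold (log2 change -2.16 ± 0.25 SE, adjusted p = 0.0011), with a GC-corrected log2 change of -0.68 ± 0.22 SE, adjusted p = 0.0567 that does not pass.

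The 2 genes that rose in this comparison were NDUFS1 and UQCRC2. NDUFS1 went from 0.834 and 0.868, the lowest mean ratio of the 82 genes in siOCT4 cells at 20% oxygen, to 2.22 and 2.27 and rose 2.64-fold (log2 change 1.40 ± 0.13 SE, adjusted p = 0.000755). UQCRC2 went from 1.13 and 1.02 to 2.40 and 2.47 and rose 2.26-fold (log2 change 1.18 ± 0.16 SE, adjusted p = 0.00187). Neither passed after the GC correction (0.23 ± 0.10 SE, adjusted p = 0.112 and 0.18 ± 0.10 SE, adjusted p = 0.209). In complex II SDHA (log2 change -0.54 ± 0.17 SE, adjusted p = 0.0328) and SDHC (log2 change -0.44 ± 0.12 SE, adjusted p = 0.0219) fell, and SDHB (log2 change -0.23 ± 0.17 SE, adjusted p = 0.281) and SDHD (log2 change 0.27 ± 0.15 SE, adjusted p = 0.169) did not pass. As deposited, the calls of SDHA and SDHC were each lost when any 1 of the 4 siOCT4 cultures was left out (adjusted p from 0.0660 to 0.184). GC corrected, SDHC (-0.81 ± 0.10 SE, adjusted p = 0.00404) and SDHB (-0.82 ± 0.17 SE, adjusted p = 0.0139) fell, and SDHA (-0.25 ± 0.14 SE, adjusted p = 0.219) and SDHD (-0.37 ± 0.18 SE, adjusted p = 0.166) did not pass. The corrected calls of SDHC and SDHB held in 8 and 5 of the 8 fits that left out 1 culture.

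In control cells the change from 20% to 1% oxygen was spread in both directions. Of the 82 genes 36 fell (39.6% of all genes tested) and 10 rose (20.5%), with a median log2 change of -0.21 beside -0.31 over all genes, so that the share that fell was close to that of the whole table. With the ratios centred on the median of all genes in each culture 30 fell (35.2% of all genes) and 18 rose (26.4%). GC corrected, 16 fell (23.0%) and 15 rose (23.2%), with a median of 0.05 beside 0.02. The count of genes that rose depended on single cultures, among the 82 genes and over all genes. It was lower in both without control culture 1 at 1% or at 20% oxygen. Without control culture 2 at 20% oxygen it was higher in both. The median log2 changes of the 82 genes in these fits were -0.42, -0.34 and -0.15, beside -0.33, -0.38 and -0.27 over all genes. GC corrected, the median was -0.13 beside 0.02 without control culture 1 at 1% oxygen and 0.20 beside 0.01 without culture 2. By complex, 14 genes of complex I fell and 3 rose, 2 of complex II fell and 1 rose, 4 of complex III fell and 2 rose, 5 of complex IV fell and 2 rose, and 11 of complex V fell and 2 rose. The median change was -0.99 in complex V and between -0.51 and -0.02 in the others; GC corrected it was -0.03 in complex V.

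NDUFA5, a subunit of the peripheral arm of complex I, had ratios of 10.6 and 7.98 in control cells at 20% oxygen and 1.20 and 1.52 at 1% oxygen. It fell 6.82-fold (log2 change -2.77 ± 0.20 SE, adjusted p = 0.000203) and 1.30-fold GC corrected (adjusted p = 0.0482, passing in 0 of 8 fits that left out 1 culture). NDUFV2 went from 2.82 and 3.13 to 0.813 and 0.863 and fell 3.54-fold (log2 change -1.82 ± 0.13 SE, adjusted p = 0.000182; 1.61-fold GC corrected). ATP5PB, a peripheral stalk subunit of ATP synthase, went from 4.73 and 4.04 to 0.899 and 0.880 and fell 4.92-fold (log2 change -2.30 ± 0.14 SE, adjusted p = 0.00016; 2.03-fold GC corrected). ATP5PF, in the same stalk, went from 3.52 and 2.43 to 0.692 and 0.733 and fell 4.10-fold (log2 change -2.04 ± 0.22 SE, adjusted p = 0.000549; 1.86-fold GC corrected). SDHD went from 4.92 and 4.35 to 1.25 and 1.02 and fell 4.11-fold (log2 change -2.04 ± 0.15 SE, adjusted p = 0.000209; 2.95-fold GC corrected). NDUFV2, ATP5PB, ATP5PF and SDHD thus fell with and without the correction, and the 2 oxygen levels do not overlap in any of them.

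UQCRQ, a small subunit of complex III, went from 1.67 and 1.15 to 0.766 and 0.640 in control cells and fell 1.98-fold (log2 change -0.99 ± 0.22 SE, adjusted p = 0.00998; 2.26-fold GC corrected). In complex IV, COX7B went from 2.73 and 3.75 to 0.937 and 0.952 (log2 change -1.76 ± 0.18 SE, adjusted p = 0.000472; GC corrected -0.06 ± 0.23 SE, adjusted p = 0.848) and NDUFA4 from 2.66 and 1.90 to 0.749 and 0.812 (log2 change -1.53 ± 0.18 SE, adjusted p = 0.000853; GC corrected 0.39 ± 0.15 SE, adjusted p = 0.0855). Both fell as deposited, and neither passed after the correction.

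Genes that rose in control cells at 1% oxygen include SDHA, COX6B2, NDUFB8 and NDUFS7. SDHA went from 0.527 and 0.512 to 0.950 and 0.896 and rose 1.78-fold (log2 change 0.83 ± 0.17 SE, adjusted p = 0.00674; 1.41-fold GC corrected), so that it and SDHD, which sit in the same complex, changed in opposite directions. COX6B2 went from 0.593 and 1.21 to 2.83 and 2.21, the highest mean ratio of the 82 genes in that group, and rose 2.95-fold (log2 change 1.56 ± 0.35 SE, adjusted p = 0.0101; 1.98-fold GC corrected). The call was lost without control culture 1 at 1% oxygen (adjusted p = 0.0590), and its ratios include values that recur in other genes. The same applies to SDHD, and in all to 11 of the 82 genes. The GC-corrected calls of SDHA and COX6B2 held in 3 and 1 of the 8 fits that left out 1 culture. NDUFB8 went from 0.640 and 0.803 to 1.61 and 1.25 and rose 1.99-fold (log2 change 0.99 ± 0.20 SE, adjusted p = 0.00735; 1.59-fold GC corrected). NDUFS7 went from 0.360 and 0.542 to 1.37 and 0.850 and rose 2.44-fold (log2 change 1.29 ± 0.32 SE, adjusted p = 0.0144). The call was lost without culture 1 of control cells at 20% oxygen (adjusted p = 0.0597) or at 1% oxygen (0.0724), and the GC-corrected change was 0.21 ± 0.15 SE, adjusted p = 0.293. SDHB fell from 1.79 and 1.72 to 1.16 and 0.879 (log2 change -0.80 ± 0.17 SE, adjusted p = 0.00763; GC corrected -0.37 ± 0.17 SE, adjusted p = 0.118), and SDHC did not pass (log2 change -0.22 ± 0.12 SE, adjusted p = 0.159).

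The 3 genes of the c subunit, whose coding sequences are shown above, parted in control cells at 1% oxygen. ATP5MC1 had 1.15 and 1.45 at 20% and 0.534 and 0.440 at 1% oxygen in control cells, the lowest mean ratio of the 82 genes in the latter group, and fell 2.66-fold (log2 change -1.41 ± 0.19 SE, adjusted p = 0.00144; 3.21-fold GC corrected). ATP5MC2 had 0.811 and 1.24 at 20% against 1.36 and 1.28 at 1% oxygen and did not pass (log2 change 0.39 ± 0.21 SE, adjusted p = 0.16). ATP5MC3 had 0.741 and 0.973 against 1.52 and 1.07 and passed only after the GC correction (log2 change 0.58 ± 0.22 SE, adjusted p = 0.0653; GC corrected 1.15 ± 0.25 SE, adjusted p = 0.0128). In control cells at 1% oxygen both cultures of ATP5MC1 lie below both of ATP5MC2 and of ATP5MC3, while at 20% oxygen the ranges of ATP5MC1 and ATP5MC2 overlap. ATP5MC1 and ATP5MC2 are the pair with the closer base composition, and whether base composition has a part in these differences was not tested. In the control cultures at 1% oxygen the Pearson correlation of log2 ratio with GC content over the 82 genes was 0.13 and -0.23.

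In siOCT4 cells all 3 c subunit genes were lower at 1% than at 20% oxygen. ATP5MC1 went from 1.48 and 1.59 to 0.581 and 0.707 and fell 2.40-fold (log2 change -1.26 ± 0.19 SE, adjusted p = 0.0027; 2.10-fold GC corrected). ATP5MC2 went from 1.22 and 1.30 to 0.611 and 0.589 and fell 2.10-fold (log2 change -1.07 ± 0.21 SE, adjusted p = 0.00718; 1.48-fold GC corrected). ATP5MC3 went from 1.18 and 1.25 to 0.478 and 0.451 and fell 2.61-fold (log2 change -1.38 ± 0.22 SE, adjusted p = 0.00327; 4.26-fold GC corrected). Between siOCT4 and control cells at 1% oxygen, ATP5MC2 fell 2.20-fold (log2 change -1.13 ± 0.21 SE, adjusted p = 0.00526) and ATP5MC3 2.74-fold (log2 change -1.45 ± 0.22 SE, adjusted p = 0.00238). ATP5MC1, already low in control cells at 1% oxygen, did not pass there (log2 change 0.40 ± 0.19 SE, adjusted p = 0.119) and was the 1 gene of the 82 called higher after the GC correction (0.51 ± 0.15 SE, adjusted p = 0.0367; 3 of 8 fits that left out 1 culture).

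**Figure D4:**
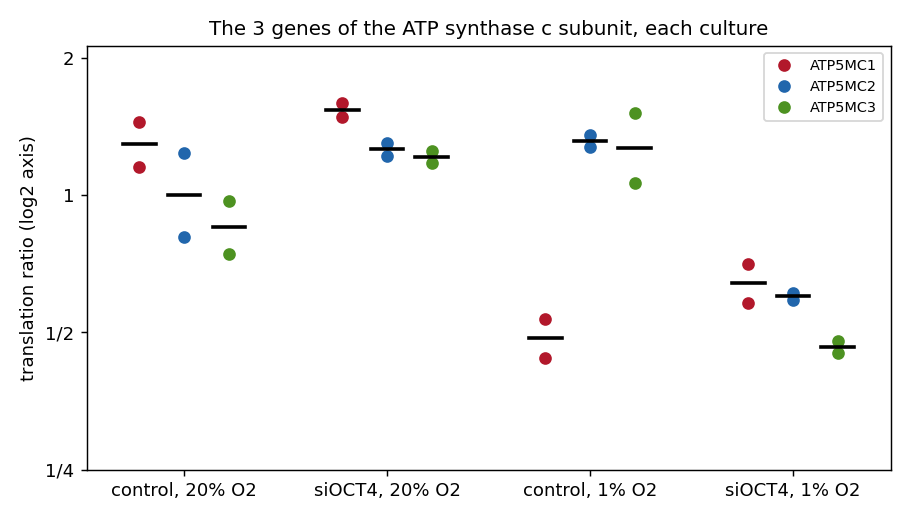
Translation ratio (vertical axis, log2 scale) of the 3 genes of the ATP synthase c subunit in the 4 groups (horizontal axis); points are the 2 cultures of a group and black bars their geometric means. ATP5MC1 is near 0.5 in control cells at 1% oxygen, where ATP5MC2 and ATP5MC3 are above 1.

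The comparison of siOCT4 with control cells at 20% oxygen shares its control cultures with the comparison of oxygen levels in control cells. The ratios were spread less widely in siOCT4 cells, and this held for the whole table. The standard deviation of the log2 ratios of all genes was 1.56 and 1.25 in the 2 control cultures and 0.50 and 0.52 in the 2 siOCT4 cultures, and that of the 82 genes was 1.02 and 0.81 against 0.26 and 0.25. The highest ratio of the 82 genes was 37.1 and 16.2 times the lowest in the 2 control cultures, and 2.18 and 2.29 times the lowest in the 2 siOCT4 cultures. Of the 82 genes 26 fell (34.1% of all genes tested) and 13 rose (19.2%), with a median log2 change of -0.04 beside -0.09 over all genes. Centred on the median of all genes, 20 fell (32.6%) and 16 rose (23.5%). GC corrected, 5 fell (7.81%) and 9 rose (7.47%), with a median of 0.20 beside -0.02. As deposited, fewer of the 82 genes rose and fewer fell without siOCT4 culture 1, siOCT4 culture 2 or control culture 1 at 20% oxygen. Without control culture 2 at 20% oxygen more rose. Both shifts were also seen over all genes. In that order the median log2 change of the 82 genes was -0.01, -0.06, -0.05 and 0.04, beside -0.11, -0.08, -0.13 and -0.08 over all genes. GC corrected, 0 of the 82 rose and 0 fell without either siOCT4 culture at 20% oxygen, where few genes of the whole table passed: 4 and 2 of 15370 rose and 0 fell. Without control culture 1 at 20% oxygen 1 rose and 0 fell, beside 286 and 221 of all genes. As deposited, complex I had 10 genes that fell and 7 that rose, complex II 2 and 1, complex III 1 and 2, complex IV 4 and 1, and complex V 9 and 2.

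Among the genes that fell were NDUFA5, NDUFS4 and SDHD, which had the 3 highest mean ratios in control cells at 20% oxygen. NDUFA5 had ratios of 10.6 and 7.98 in control cells against 1.71 and 1.83 with siOCT4, without overlap, and fell 5.20-fold (log2 change -2.38 ± 0.20 SE, adjusted p = 0.000654; GC corrected -0.43 ± 0.12 SE, adjusted p = 0.0679). NDUFS4, an accessory subunit of the peripheral arm, had 4.70 and 5.20 against 1.50 and 1.58 and fell 3.21-fold (log2 change -1.68 ± 0.16 SE, adjusted p = 0.000724; GC corrected -0.35 ± 0.20 SE, adjusted p = 0.27). ATP5PB had 4.73 and 4.04 against 1.26 and 1.28 and fell 3.44-fold (log2 change -1.78 ± 0.14 SE, adjusted p = 0.000653; 1.60-fold GC corrected). SDHD had 4.92 and 4.35 against 1.54 and 1.55 and fell 2.99-fold (log2 change -1.58 ± 0.15 SE, adjusted p = 0.000765; 2.26-fold GC corrected). ATP5PO, the stalk subunit known as OSCP, had 4.14 and 2.60 against 1.24 and 1.34 and fell 2.55-fold (log2 change -1.35 ± 0.24 SE, adjusted p = 0.00562; 2.33-fold GC corrected), and COX7B had 2.73 and 3.75 against 1.48 and 1.40 (log2 change -1.15 ± 0.18 SE, adjusted p = 0.00329; GC corrected 0.31 ± 0.23 SE, adjusted p = 0.404). The GC-corrected calls of ATP5PB, SDHD and ATP5PO held in 2, 3 and 1 of the 8 fits that left out 1 culture.

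Genes that rose in siOCT4 cells at 20% oxygen included NDUFS7, ATP5F1D, CYC1 and SDHA. NDUFS7 had ratios of 0.360 and 0.542 in control cells against 1.11 and 1.35 with siOCT4, without overlap, and rose 2.77-fold (log2 change 1.47 ± 0.32 SE, adjusted p = 0.0109; GC corrected 0.18 ± 0.15 SE, adjusted p = 0.45). ATP5F1D had 0.446 and 0.593 against 1.03 and 1.27 and rose 2.23-fold (log2 change 1.15 ± 0.25 SE, adjusted p = 0.0109; GC corrected -0.32 ± 0.22 SE, adjusted p = 0.365). CYC1 had 0.524 and 0.612 against 1.08 and 1.20 and rose 2.01-fold (log2 change 1.01 ± 0.22 SE, adjusted p = 0.0123; GC corrected 0.07 ± 0.14 SE, adjusted p = 0.761). The calls of NDUFS7, ATP5F1D and CYC1 were lost without siOCT4 culture 2 at 20% oxygen (adjusted p = 0.0712, 0.0794 and 0.0814), and that of CYC1 also without culture 1 (0.0542). SDHA rose 1.66-fold (log2 change 0.73 ± 0.17 SE, adjusted p = 0.0134; GC corrected 0.31 ± 0.14 SE, adjusted p = 0.202), a call lost without siOCT4 culture 1 (0.0943). SDHB fell (log2 change -0.57 ± 0.17 SE, adjusted p = 0.0303), passing in 2 of 8 fits that left out 1 culture, and SDHC did not pass (log2 change -0.06 ± 0.12 SE, adjusted p = 0.692). ATP5MC3 passed after the GC correction only (log2 change 0.51 ± 0.22 SE, adjusted p = 0.0986 as deposited; 1.00 ± 0.25 SE, adjusted p = 0.0487 corrected).

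The interaction asks whether the change with siOCT4 differed between 1% and 20% oxygen. For 36 of the 82 genes the siOCT4 change was more negative at 1% oxygen (26.2% of all genes tested) and for 12 more positive (42.5%), with a median of -0.50 beside 0.49 over all genes. Centred on the median of all genes in each culture, the counts were 50 (33.4%) and 8 (37.7%). With the GC correction they were 54 (21.8%) and 1 (22.6%), with a median of -1.29 beside -0.0047, and with length also corrected 43 (21.8%) and 4 (21.0%), with a median of -0.76 beside -0.01. The GC-corrected medians were -1.71 in complex IV, -1.58 in complex III, -1.49 in complex V, -0.99 in complex I and -0.60 in complex II. COX5B (log2 change -2.37 ± 0.40 SE, adjusted p = 0.00256; GC corrected -2.40 ± 0.36 SE, adjusted p = 0.0042), ATP5MF (log2 change -2.00 ± 0.39 SE, adjusted p = 0.00491; GC corrected -1.87 ± 0.34 SE, adjusted p = 0.0079), CYC1 (log2 change -2.58 ± 0.32 SE, adjusted p = 0.00069; GC corrected -0.87 ± 0.20 SE, adjusted p = 0.0183) and NDUFA13 (log2 change -3.38 ± 0.65 SE, adjusted p = 0.00483; GC corrected -1.64 ± 0.38 SE, adjusted p = 0.0183) passed with and without the correction. SDHD was the 1 gene with a more positive change under both (log2 change 2.31 ± 0.22 SE, adjusted p = 0.000241; GC corrected 1.19 ± 0.26 SE, adjusted p = 0.014), whereas SDHA had a more negative one (log2 change -1.37 ± 0.24 SE, adjusted p = 0.00286; GC corrected -0.75 ± 0.20 SE, adjusted p = 0.03). The GC-corrected calls of COX5B and ATP5MF held in all 8 fits that left out 1 culture, those of CYC1 and SDHD in 5, that of NDUFA13 in 4 and that of SDHA in 2. Recurring values are among the ratios of SDHD, as given above.

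**Figure D5:**
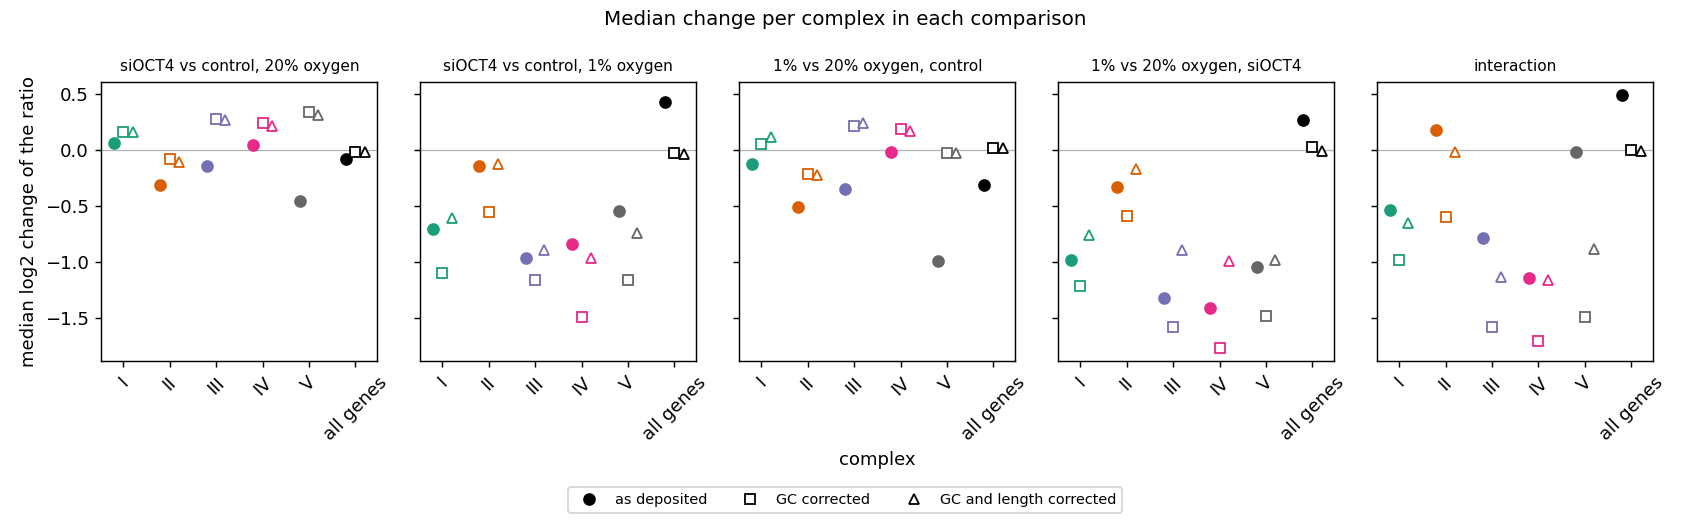
Median log2 change of the ratio (vertical axis) of complexes I to V and of all genes tested (horizontal axis) in the 5 comparisons, as deposited (filled circles), GC corrected (open squares) and GC and length corrected (open triangles). In the comparisons of siOCT4 with control at 1% oxygen and of 1% with 20% oxygen in siOCT4 cells, all 5 complexes have negative medians under each treatment of the data, with complex II nearest to 0.

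Other genes of the pathway were set beside the subunits from lists of assembly factors, electron carriers and citric acid cycle enzymes. Between siOCT4 and control cells at 1% oxygen 2 of 13 complex I assembly genes fell and 4 rose, and 9 of 35 assembly genes of complexes II to V fell and 11 rose. Among 16 genes of electron carriers and coenzyme Q synthesis 3 fell and 5 rose, and among 17 genes of the citric acid cycle and pyruvate dehydrogenase 7 fell and 7 rose. Of all genes tested 19.9% fell and 41.1% rose. The median log2 changes of the 4 lists were 0.55, 0.12, 0.12 and 0.18, beside -0.75 for the subunits. After the GC correction the medians were -0.31, -0.52, -0.85 and -0.69, beside -1.14 for the subunits, and 5 of 13, 15 of 35, 9 of 16 and 14 of 17 genes fell, compared with 23.0% of all genes. As deposited, LRPPRC, which stabilizes mitochondrial mRNAs, rose (log2 change 1.88, adjusted p = 0.00104). COX14, an assembly factor of complex IV, fell (log2 change -1.70, adjusted p = 0.000619). MDH2, the malate dehydrogenase of the citric acid cycle, also fell (log2 change -1.25, adjusted p = 0.000857). These 3 were chosen after their values were seen, and their GC-corrected changes are not given here.

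Of the isoforms that cells in hypoxia are known to use, neither is among the 82 genes. COX4I2 had a ratio in 3 of 8 cultures. NDUFA4L2, a target of the hypoxia-inducible factors, had one in 6 of 8: 6.87 and 5.96 with the control siRNA at 1% oxygen, 0.325 and 0.339 with siOCT4 at 1% oxygen, 0.0419 in 1 control culture and 0.760 in 1 siOCT4 culture at 20% oxygen. The control cultures at 1% oxygen are the high ones and do not overlap with the rest. No fit covers this gene, and its ratios may rest on few reads, since the counts are unknown. A ratio is not a level, and an exchange of isoforms was not tested. The control cultures at 1% oxygen had ratios of 0.749 and 0.812 for NDUFA4.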

How the data were processed

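The authors deposited 1 table of translation ratios per gene for 8 cultures, each the RNC value over the RNA value of that culture (unit: ratio), made from 16 libraries. Per the submitters' processing notes the build is hg19; aligner, counter and depth were not stated, so precision can be read only from the 2 cultures of a group. The 82 genes and the gene lists were chosen with earlier results of these data known.

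From the deposited ratios, log2 values of the 15864 genes with a ratio in all 8 cultures were fitted with limma 3.58.1 (R 4.3.3, statmod 1.5.0; trend and robust), with 4 group means and 4 residual degrees of freedom. All adjusted p-values are limma's, Benjamini-Hochberg adjusted over all genes, two-sided, with a threshold of 0.05. Fold values are 2 to the power of the size of the log2 change. GC-corrected values are residuals from a spline with 6 degrees of freedom on transcript GC content in each culture (15370 genes, 96.9%, by GENCODE release 29, no coordinates used), fitted in the same way. The fit was tested on simulated data. Single genes were taken from those a rule names: in each comparison up to 2 per complex and direction with the largest log2 change among called genes whose groups do not overlap (the interaction needs only the call), SDHA to SDHD, CYC1, isoform sets, F1 subunits, and the highest and lowest ratio of each group. 1 gene the rule names is counted but not reported here by name. The text says which were added after their values were seen. Alternatives were median centring, pseudocounts, other fits, a replicate block and leaving out each culture.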

Additional observations from a re-analysis of the deposited data

Results flagged for a closer look

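For 12 of the genes described, the change with siOCT4 differed between 1% and 20% oxygen by limma's interaction test, with adjusted p from 0.000221 to 0.00491. Such calls were common in the whole table. Of all genes tested 26.2% passed with a more negative and 42.5% with a more positive change, beside 36 and 12 of the 82 genes. The siOCT4 change was more negative at 1% oxygen for NDUFA13 (interaction -3.38 on the log2 scale), ATP5F1D (-3.20), CYC1 (-2.58), COX5B (-2.37), ATP5MF (-2.00) and SDHA (-1.37). It was more positive for NDUFA5 (2.94), SDHD (2.31), ATP5PB (2.19), UQCRC2 (1.86), NDUFV2 (1.86) and COX7B (1.31). After the GC correction SDHD alone of these last 6 had a positive value, and NDUFA5 (-0.78, adjusted p = 0.0148) and COX7B (-1.71, adjusted p = 0.00901) passed with a negative one. ATP5F1D no longer passed (-0.49, adjusted p = 0.248), and NDUFA13, CYC1, COX5B, ATP5MF and SDHA passed with the same sign. With 1 culture left out, the GC-corrected calls of COX5B, ATP5MF and COX7B held in all 8 fits, that of NDUFA5 in 6, those of CYC1 and SDHD in 5, that of NDUFA13 in 4 and that of SDHA in 2. The ratios of SDHD include values that recur in other genes.

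NDUFA4L2, which lacks a ratio in 2 cultures and was in no comparison, had ratios of 6.87 and 5.96 in control cells at 1% oxygen, above the 0.0419 of the 1 control culture at 20% oxygen with a value. The counts behind these ratios are unknown.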

How the results depend on the processing

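Members called higher and lower moved with the correction for base composition. GC corrected, and then GC and length corrected, 9 and 10 were higher and 5 and 5 lower for siOCT4 at 20% oxygen; 1 and 2 higher for siOCT4 at 1% oxygen; 16 and 14 lower and 15 and 17 higher for oxygen in control cells; 1 and 2 higher for oxygen in siOCT4 cells; and 1 and 4 higher for the interaction. Of all 15370 genes, 1148 and 1225 were higher and 1201 and 1303 lower for siOCT4 at 20% oxygen. For oxygen in control cells 3568 and 3616 were higher and 3534 and 3567 lower. Of the 82 genes 66 and 48 were lower for siOCT4 at 1% oxygen (23.0% and 22.2% of all genes). For oxygen in siOCT4 cells 70 and 48 were lower (18.3% and 15.9%), and for the interaction 54 and 43 (21.8% and 21.8%). The shares of all genes called higher in these comparisons were 22.1% and 19.1%, 19.2% and 13.9%, and 22.6% and 21.0%. Median centring gave 2 higher for siOCT4 at 1% oxygen (5159 of all 15864 genes) and 18 higher for oxygen in control cells (4189). Fits of only the groups compared gave 8 higher for siOCT4 at 20% oxygen (1572 of all genes) and 5 for oxygen in control cells (2104). Without genes whose ratios recur in others, 71 of the 82 genes and 8087 genes in all remained. Of these, 22 and 2626 were higher for siOCT4 at 20% oxygen, which are similar shares.

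Leaving out each culture in turn, with or without the GC correction, gave for siOCT4 at 20% oxygen 0 to 21 higher and 0 to 24 lower, for siOCT4 at 1% oxygen 0 to 6 and 33 to 74, for oxygen in control cells 2 to 17 and 9 to 36, for oxygen in siOCT4 cells 0 to 2 and 44 to 76, and for the interaction 0 to 15 and 28 to 57. With 1 culture left in a group, it is assumed to vary like the others. The counts over all genes varied between these fits as well, so the ranges do not describe the 82 genes alone. For siOCT4 at 20% oxygen the median log2 change was -0.06 to 0.24 for the 82 genes and -0.13 to -0.01 over all genes. It was -1.27 to -0.58 beside -0.03 to 0.44 for siOCT4 at 1% oxygen. For oxygen in control cells it was -0.42 to 0.20 beside -0.38 to 0.02. In siOCT4 cells it was -1.45 to -1.09 beside 0.02 to 0.29. For the interaction it was -1.40 to -0.42 beside -0.01 to 0.54.

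With the replicate number as a block, 8 were higher for siOCT4 at 20% oxygen (2200 of all 15864 genes). With the block and the GC correction 0 were higher and 0 lower there (274 and 200 of all 15370 genes). In that fit 0 were higher for siOCT4 at 1% oxygen (3012) and 13 lower for oxygen in control cells (3154). It had 0 higher for oxygen in siOCT4 cells (2462) and 1 higher for the interaction (3053). The labels do not say that a number marks anything shared, and deviations of same-numbered cultures correlated between -0.23 and 0.02 over all genes and between -0.81 and 0.32 over the 82 genes.

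Signs reversed under the GC correction (the same value with the replicate block), then GC and length where that reversed too, then the lowest and highest with 1 culture left out. For siOCT4 at 1% oxygen NDUFS1 was -0.32, -0.27 and -0.35 to 1.10, NDUFV2 -0.49 and -0.54 to 0.77, SDHB -0.67 and -0.90 to 0.20, UQCRC2 -0.0350 and -0.0745 to 1.21, ATP5F1A -0.86, -0.79 and -0.90 to 0.0434. With 1 culture left out alone, SDHD ranged from -0.17 to 0.88. For oxygen in control cells NDUFA4 was 0.39, 0.39 and -1.77 to 0.51, and COX7B ranged from -1.99 to 0.28. For siOCT4 at 20% oxygen COX7B was 0.31, 0.27 and -1.38 to 0.64, ATP5F1D -0.32, -0.34 and -0.64 to 1.36, and CYC1 ranged from -0.10 to 1.12. For the interaction NDUFA5 was -0.78, -0.42 and -0.87 to 3.14, NDUFV2 -0.35 and -0.49 to 1.93, UQCRC2 -0.15 and -0.24 to 2.00, COX7B -1.71, -0.93 and -2.04 to 1.54, ATP5PB -0.21, -0.0642 and -0.33 to 2.31. The cause was not tested. Leaving out ATP5S and ATP5SL could not be run, since the rule matched neither symbol. Without counts, the depth behind low ratios is unknown.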
